A study of Homo sapiens with 7 samples.

Results

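A group of 9 long noncoding RNA genes was followed in 501Mel, a human melanoma cell line, with and without knockdown of another long noncoding RNA, GRASLND. They are SAMMSON, TEX41, CASC15, DIRC3, MALAT1, NEAT1, TUG1, NORAD and PVT1, and all 9 were found by gene name in a table of 21305 genes. TEX41 was chosen by its measured level, which moved in opposite directions under the 2 hairpins in these same libraries, so its values are described here without a test. The other members were chosen as long noncoding RNAs known from melanoma or for their abundance, with earlier results of these data known.

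The 7 libraries came from 501Mel cells that carried a hairpin RNA switched on by doxycycline, a drug that all groups received. A short hairpin RNA is processed by the cell into a guide that lowers a matching transcript. By the labels, 3 libraries carried shlacZ, a control hairpin with a bacterial target, 2 carried sh4 and 2 carried sh8. The labels do not name the target of sh4 and sh8, which are taken here as the study's 2 hairpins against GRASLND. By the study's methods each line was a puromycin-selected pool transduced with a lentiviral vector, and the hairpins were induced with 2 μg/mL doxycycline for 3 days before sequencing. The labels do not say whether libraries of a group came from separate cultures, so the p-values measure only the spread between these libraries.

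A long noncoding RNA is a transcript that is not known to be translated. Some act at the place where they are made, on the genes beside them, and others build or load nuclear bodies or bind proteins in bulk. MALAT1 collects in nuclear speckles, which hold splicing factors, NEAT1 is the scaffold of paraspeckles, and NORAD binds Pumilio proteins, which repress messenger RNAs. SAMMSON, which lies beside the melanocyte regulator gene MITF, is known as a lineage RNA on which melanoma cells depend.

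Each level is a normalized count, the number of reads of a gene divided by a size factor of its library, and 1 read was worth 0.746 to 1.32 normalized counts. The reads recovered over all genes listed summed to between 13337317 and 22855232 in a library, which is a part of all reads sequenced. GRASLND, the targeted gene, was at 309, 330 and 289.7 normalized counts in the shlacZ libraries, at 175 and 131 under sh4 and at 227 and 163 under sh8. Its log2 fold change was -1.02 under sh4 and -0.68 under sh8 (adjusted p 0.00662 and 0.110 by limma). The melanocyte genes MITF, SOX10, MLANA, PMEL, TYR, DCT and TYRP1 were all detected, whereas 3 of 5 fibroblast, 3 of 4 keratinocyte and 3 of 4 leukocyte markers were absent from the table. Of those present, the leukocyte marker CD68 counted 675, 493 and 533 in the shlacZ libraries, while COL1A1, THY1 and DSG3 counted 1.05 to 13.9. The 7 melanocyte markers summed to between 135575 and 146343 normalized counts in the shlacZ libraries, 51868 and 59737 under sh4, and 101544 and 104484 under sh8.

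The members spanned more than 3 orders of size in level. Since reads rise with length, levels were compared between genes as normalized counts per kilobase of all annotated exons merged. In the shlacZ libraries MALAT1 stood at 7057 ± 1139 (SD, n = 3) per kilobase, above 99.8% of the 21281 genes with a length. NORAD followed with 1309.8 ± 84.8 and NEAT1 with 1239 ± 1079.7, which did not differ beyond the spread of NEAT1. TUG1 came next with 484 ± 24.5. TEX41 with 45.1 ± 10.6, SAMMSON with 41.1 ± 15.4 and PVT1 with 36.8 ± 8.81 lay within each other's spread, CASC15 stood lower at 23.1 ± 4.20, and DIRC3 was last with 1.27 ± 0.709. Long noncoding genes with many annotated exons are penalised by this length: by the longest transcript alone PVT1 read 382 ± 91.4 per kilobase and ranked 5 in place of 7, while the first 4 ranks and the last 2 were as before.

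**Figure D1:**
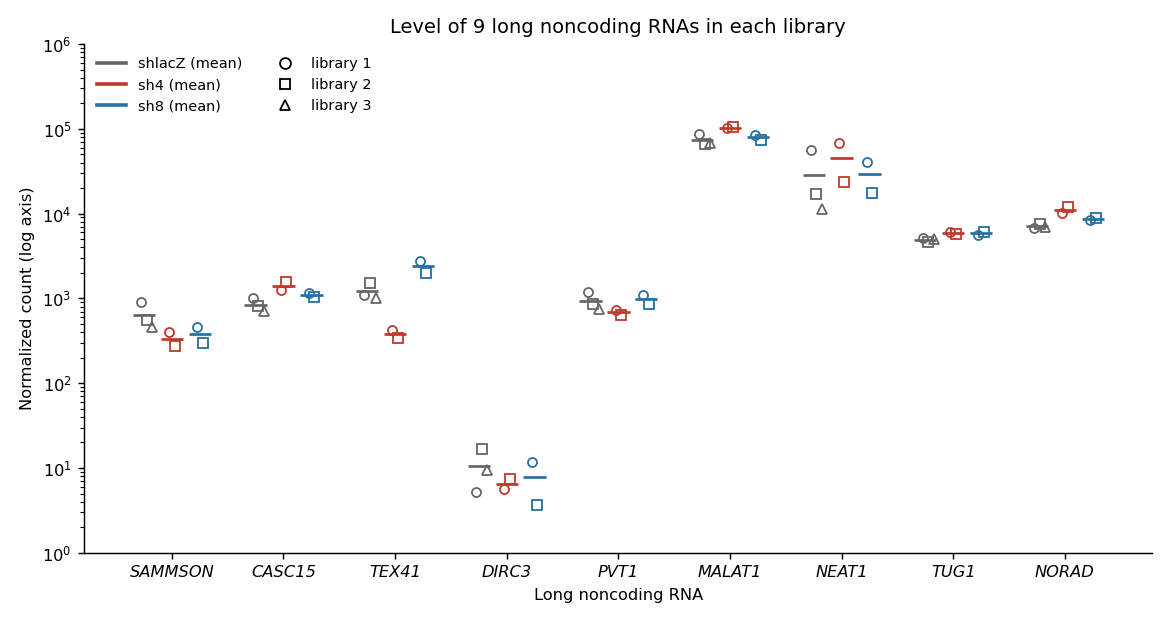
Normalized count (log axis) of the 9 long noncoding RNAs in each of the 7 libraries. Colours mark the groups, symbols the library numbers of the labels, and short lines the group means; TEX41 lies lowest under sh4 and highest under sh8, and library 1 is the highest NEAT1 value of every group.

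The first question was whether GRASLND knockdown, with both hairpins pooled, shifted these RNAs. Every test was a limma fit on log2(normalized count + 1) over the 15420 genes whose mean reached 10 normalized counts, with p-values adjusted over all of them. Of the 9 members DIRC3 did not reach that mean, and TEX41 was left out of all counts because of how it was chosen. None of the other 7 members passed an adjusted p of 0.05 by limma, and none by limma-voom on the reads. At an unadjusted p under 0.05 there were 4, namely NORAD, CASC15, TUG1 and SAMMSON, where 24.1% of all genes had such a p. By the adjusted p 2.55% of all genes tested passed as higher and 2.06% as lower. In 3 of the 7 members (NORAD, CASC15 and TUG1) every knockdown library lay above every shlacZ library, where 10.2% of all genes did so. In 1 member, SAMMSON, every knockdown library lay under every shlacZ library, where 11.0% of all genes did so.

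Each hairpin was then compared with shlacZ in a fit that kept the 3 groups apart. Under sh4, 2 of the 7 members passed, NORAD and CASC15, both as higher, and none passed as lower. In that comparison 10.5% of all genes passed as higher and 11.9% as lower. An unadjusted p under 0.05 was met by 5 of the 7 and by 36.1% of all genes. With every library set to the same total, the numbers of all genes higher and lower under sh4 turned from 1624 and 1840 to 2182 and 1491. Under sh8 none of the 7 passed by limma or by limma-voom, and 1.38% of all genes passed as higher and 1.54% as lower. An unadjusted p under 0.05 was met by 4 of the 7 and by 18.5% of all genes. Between sh4 and sh8 none of the 7 passed by limma or by limma-voom, and 3.67% of all genes passed as higher in sh4 and 3.33% as lower. An unadjusted p under 0.05 was met by 2 of the 7 (NORAD and PVT1) and by 22.6% of all genes. With every library set to the same total, the numbers of all genes higher and lower in sh4 than in sh8 turned from 566 and 513 to 859 and 425. The sh4 and sh8 comparisons share the 3 shlacZ libraries.

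**Figure D2:**
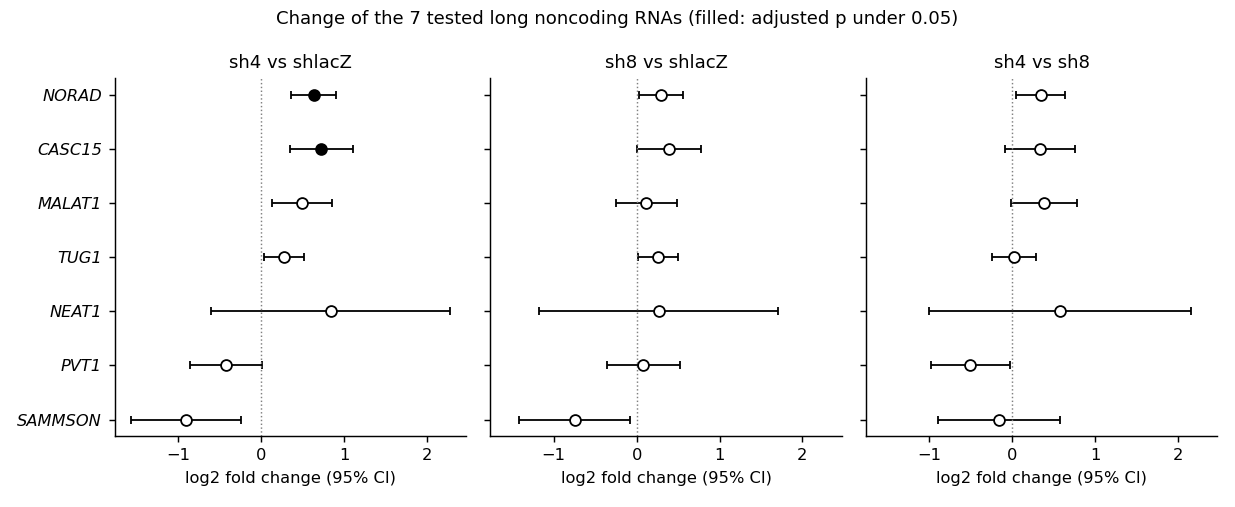
log2 fold change of the 7 tested long noncoding RNAs with its 95% confidence interval from limma, for sh4 against shlacZ, sh8 against shlacZ and sh4 against sh8. Filled points passed an adjusted p of 0.05, which were NORAD (0.64) and CASC15 (0.73) under sh4; the NEAT1 intervals are the widest.

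NORAD was the member with the lowest adjusted p. NORAD, a single-exon RNA at chr20:36045618-36051018 on the minus strand (hg38), counted 6724, 7593 and 6906 in the shlacZ libraries, 10061 and 11972 under sh4, and 8462 and 8845 under sh8. The 3 groups did not overlap, with sh4 highest and shlacZ lowest. Its log2 fold change was 0.64 under sh4 (95% interval 0.37 to 0.90, adjusted p 0.00513 by limma) and 0.29 under sh8 (interval 0.02 to 0.56, adjusted p 0.235). The difference between the hairpins was 0.34 (interval 0.05 to 0.64, adjusted p 0.158). Without sh4 library 2 the sh4 value was 0.51 and no longer passed (adjusted p 0.0623); over all alternatives its adjusted p ran from 0.000296 to 0.0623.

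NORAD is known for repeated copies of the Pumilio element, an 8-base motif written TGTANATA in DNA letters, in which N is any base. The 5401 bases of its transcript held 15 matches, or 2.78 per kilobase, from position 819 to position 4657 counted from the 5′ end. Of the 15 matches, 10 had T, 4 had A and 1 had C at the free base, and 3 neighbouring pairs started 9 bases apart. Matches 2, 4 and 11 are shown to let the repeated surroundings be seen, and match 15 is shown as the last one. Each is given 5′ to 3′ on the minus strand with the motif in capitals, at chr20:36049804-36049831, chr20:36049502-36049529, chr20:36047972-36047999 and chr20:36046345-36046372 (hg38).
match 2: ctcactactgTGTATATAgttgacaatg
match 4: tacttatctgTGTATATAgtgtacataa
match 11: aaccctactgTGTATATAgcggacaaac
match 15: ttagcctattTGTAAATAcctttgttat

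The right flank of match 4 holds match 5, left in lower case. Of 4522 annotated long noncoding RNA genes with a longest transcript of at least 2 kilobases, 5 had more matches than NORAD, and 27.6% had any. NEAT1 had 6 matches in a longer transcript (0.264 per kilobase), TUG1 had 2, SAMMSON, TEX41 and CASC15 had 1 each, and MALAT1, DIRC3 and PVT1 had 0. A match is a run of letters, and binding was not measured.

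**Figure D3:**
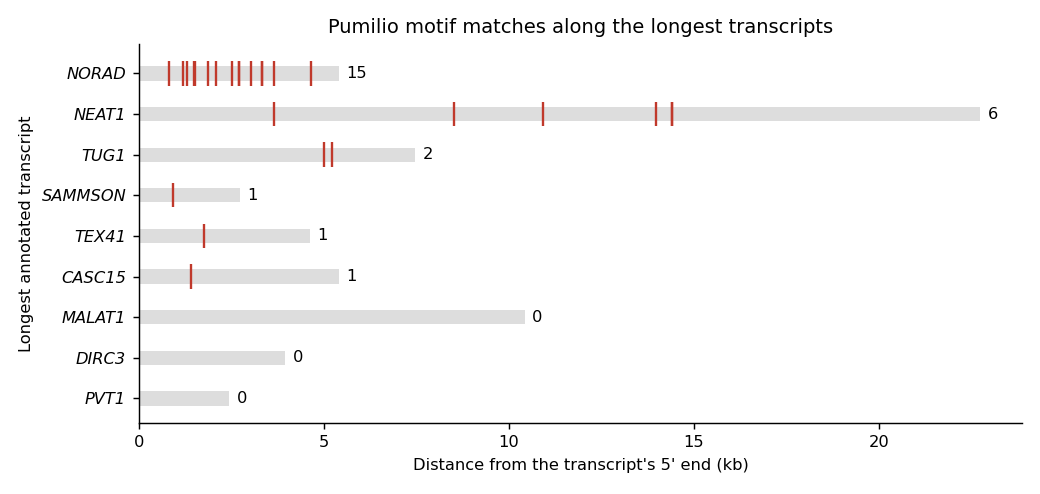
Matches of the Pumilio motif (vertical lines) along the longest annotated transcript of each long noncoding RNA (grey bars, distance from the 5′ end in kb). The number beside each bar counts the matches, 15 in NORAD and 6 in NEAT1.

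PUM2 and RBMX, which code for proteins that NORAD is known to bind, did not pass in any comparison. PUM2, a translational repressor, had log2 fold changes of -0.30 and -0.04 under sh4 and sh8. RBMX, a nuclear RNA-binding protein, had -0.37 and -0.29, with adjusted p of 0.0547 and 0.241 by limma. Of the 16 tested genes with an end within 500 kb of NORAD, 3 passed as higher and 1 as lower under sh4. In that comparison 10.5% of all genes tested passed as higher and 11.9% as lower. The neighbour CNBD2, 14.9 kb away, counted 28.9, 34.6 and 27.8 in the shlacZ libraries, 96.0 and 126 under sh4, and 50.1 and 58.2 under sh8. It rose under sh4 by 1.83 (adjusted p 0.00152), while its sh8 value of 0.81 had an adjusted p of 0.144. EPB41L1, which codes for a membrane skeleton protein, rose by 1.06 under sh4 (adjusted p 0.0353), a call that held in 2 of the 7 fits that each left out 1 library.

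CASC15 was the other member that passed. CASC15 spans 990.3 kb at chr6:21664184-22654455 on the plus strand and is known as a neuroblastoma susceptibility locus and for an RNA linked to melanoma progression. It counted 1009, 822 and 705 in the shlacZ libraries, 1239 and 1550.2 under sh4, and 1170.5 and 1027 under sh8. Every hairpin library lay above every shlacZ library. Its log2 fold change was 0.73 under sh4 (interval 0.35 to 1.11, adjusted p 0.0141 by limma) and 0.39 under sh8 (interval 0.01 to 0.77, adjusted p 0.260). The hairpins differed by 0.34 (interval -0.08 to 0.76, adjusted p 0.333). The sh4 value was 0.57 and did not pass without sh4 library 2 (adjusted p 0.133), and it did not pass without the variance trend (adjusted p 0.0545). The sh8 value was 0.53 and passed without shlacZ library 1 (adjusted p 0.0498).

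SOX4, a transcription factor gene 65.6 kb from CASC15 and known as a target of its RNA, counted 1762, 2091 and 1737 in the shlacZ libraries, 2900.2 and 3225 under sh4, and 1594 and 1595 under sh8. The sh4 libraries lay above the others and the sh8 libraries lay below. SOX4 rose by 0.72 under sh4 (adjusted p 0.00320), had -0.22 under sh8 (adjusted p 0.387), and differed between the hairpins by 0.94 (adjusted p 0.00452, limma). CASC15 was thus above shlacZ under both hairpins in level, and SOX4 only under sh4, a difference between the genes that was not tested. Of 3 tested genes near CASC15, SOX4 was the one that passed. Over all genes tested 10.5% passed as higher under sh4.

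Promoters of members, among them the 2 that passed, were read for letters that melanocyte factors are known to prefer. RefSeq promoter windows (GRCh38.p14, 250 bases before to 50 after a start) were on hand for 5 of the 9 members, CASC15, DIRC3, MALAT1, NORAD and TUG1. The motifs were TCATGTG (the M-box) and CACGTG (the E-box), letters that MITF is known to bind, and ACAATG and ACAAAG, which SOX factors are known to bind, on both strands. The M-box was in none of the windows of the 5 members and in 2.92% of 35116 windows. The E-box was in 7.26% of all windows and stood in those of NORAD and TUG1 and in 2 of 3 DIRC3 windows, which overlap each other. ACAATG was in 10.8% and ACAAAG in 16.1% of all windows, and the CASC15 window held both. ACAAAG also stood in the windows of TUG1, in both of MALAT1 and in 1 of the 3 of DIRC3, and in none of NORAD. The CASC15 window lies inside the annotated gene, which starts at 21664184, and other CASC15 starts were not read. The NORAD window lies at chr20:36050911-36051210 on the minus strand, the CASC15 window at chr6:21666163-21666462 on the plus strand and the TUG1 window at chr22:30969015-30969314 on the plus strand, with all matches in capitals (CTTTGT is ACAAAG on the other strand).
NORAD: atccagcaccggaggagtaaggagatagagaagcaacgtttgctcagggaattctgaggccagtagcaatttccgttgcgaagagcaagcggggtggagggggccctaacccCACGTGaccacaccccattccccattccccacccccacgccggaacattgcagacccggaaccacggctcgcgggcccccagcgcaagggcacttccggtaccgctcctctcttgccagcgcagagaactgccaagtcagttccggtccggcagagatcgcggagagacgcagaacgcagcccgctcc
CASC15: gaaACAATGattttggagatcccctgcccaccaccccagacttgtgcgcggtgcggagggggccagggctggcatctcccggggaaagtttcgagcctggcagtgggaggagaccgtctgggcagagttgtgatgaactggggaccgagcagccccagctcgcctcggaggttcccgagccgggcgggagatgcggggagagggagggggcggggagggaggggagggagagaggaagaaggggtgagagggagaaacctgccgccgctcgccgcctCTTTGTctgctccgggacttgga
TUG1: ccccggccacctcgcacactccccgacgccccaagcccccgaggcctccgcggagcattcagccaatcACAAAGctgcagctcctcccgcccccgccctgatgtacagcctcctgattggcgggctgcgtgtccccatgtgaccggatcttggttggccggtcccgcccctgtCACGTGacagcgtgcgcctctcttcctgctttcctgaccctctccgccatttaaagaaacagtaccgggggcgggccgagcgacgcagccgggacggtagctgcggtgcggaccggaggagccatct

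TUG1, whose gene lies at chr22:30969245-30979395 and is annotated as protein coding in GENCODE v44, had the least spread of the members. It counted 5139.7, 4646 and 4954 in the shlacZ libraries, 6112 and 5786 under sh4, and 5631 and 6108 under sh8. Both hairpins lay above shlacZ with no overlap, at 121% and 119% of the shlacZ mean. The log2 fold change was 0.28 under sh4 (interval 0.03 to 0.52, adjusted p 0.0955 by limma) and 0.26 under sh8 (interval 0.01 to 0.50, adjusted p 0.245), so neither passed. The hairpins differed by 0.02 (interval -0.25 to 0.29). Under sh4 TUG1 passed with quantile normalization (0.44, adjusted p 0.0220) and with every library set to the same total (0.38, adjusted p 0.0418).

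TUG1 is known to bind the Polycomb complex, which silences genes. The Polycomb genes EZH2 and SUZ12 had log2 fold changes of -0.26 and -0.15 under sh4 and -0.10 and 0.08 under sh8, and neither passed. PPARGC1A, a regulator of mitochondrial genes that TUG1 is known to act on, counted 5429, 2749 and 2500.2 in the shlacZ libraries, 1902 and 1603 under sh4, and 1475 and 1790.1 under sh8. All 4 hairpin libraries lay below shlacZ, whose library 1 was far above the other two. PPARGC1A fell by 0.99 in the pooled comparison (adjusted p 0.0462) and by 0.94 under sh4 (adjusted p 0.0382). The sh8 value was -1.04 (adjusted p 0.0825), and over all alternatives the sh4 adjusted p ran from 0.00573 to 0.207. MORC2, which starts 0.471 kb from TUG1 on the other strand, had 0.39 and 0.05 and did not pass. Of 15 tested genes near TUG1, 4 passed as higher under sh4, among them PIK3IP1 (2.16, adjusted p 0.00822) and the phosphatase gene DUSP18 (1.04, adjusted p 0.00849, limma). PIK3IP1 was at low counts, with 11.4, 11.5 and 6.09 in the shlacZ libraries and 63.2 and 32.1 under sh4. Over all genes tested 10.5% passed as higher under sh4.

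SAMMSON was the tested member that stood lowest against shlacZ. SAMMSON lies at chr3:69999550-70518064 on the plus strand, 31.2 kb from MITF. It counted 919, 557 and 459 in the shlacZ libraries, 396 and 273 under sh4, and 457 and 296 under sh8. All 4 hairpin libraries lay below shlacZ, the first sh8 library only just, and the means stood at 51.9% and 58.4% of the shlacZ mean. The log2 fold change was -0.91 under sh4 (interval -1.57 to -0.24, adjusted p 0.0550 by limma) and -0.75 under sh8 (interval -1.41 to -0.08, adjusted p 0.223), so neither passed. The hairpins differed by -0.16 (interval -0.89 to 0.57). The sh4 value ran from -1.17 to -0.62 with 1 library left out and passed in 1 of 7 such fits, without shlacZ library 3 (-1.12, adjusted p 0.0289). Without shlacZ library 1, the highest of its group, the values were -0.62 under sh4 (adjusted p 0.0703), -0.46 under sh8 (adjusted p 0.230) and -0.54 pooled (adjusted p 0.169). Without the second sh4 library the sh4 value was -0.64 (adjusted p 0.319), and without the second sh8 library the sh8 value was -0.43 (adjusted p 0.661).

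SAMMSON has a large spread within groups, with a within-group SD of 0.47 on the log2 scale, which exceeds that of 95.1% of the 12050 genes whose mean reached 50. Library 1 was the highest of every group, at 1.65, 1.45 and 1.55 times library 2 in shlacZ, sh4 and sh8. Between libraries of the same number, SAMMSON differed by between -1.21 and -0.91 on the log2 scale in each of the 4 pairs of a hairpin and a shlacZ library. Over all genes the deviations of same-numbered libraries correlated only from -0.08 to 0.34, so this is a description. With the replicate number as a block, SAMMSON passed under sh4 (-1.12, adjusted p 0.00101) and sh8 (-0.96, adjusted p 0.0112, limma).

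The melanocyte factors MITF and SOX10 fell under sh4. MITF counted 22076, 20552 and 17326 in the shlacZ libraries, 12619 and 11635 under sh4, and 19031 and 17418 under sh8. MITF fell by 0.71 under sh4 (adjusted p 0.00483), had -0.13 under sh8 (adjusted p 0.658), and differed between the hairpins by -0.59 (adjusted p 0.0415, limma). SOX10, a factor known to drive SAMMSON, fell by 1.19 under sh4 (adjusted p 0.000793) and had -0.38 under sh8 (adjusted p 0.226). Of the 7 melanocyte markers 6 passed as lower under sh4, and TYR did not (0.15). The SAMMSON level and the melanocyte marker sum were both below shlacZ in every hairpin library, and the part of one in the other was not tested. C1QBP, the mitochondrial protein that SAMMSON is known to bind, fell by 0.82 under sh4 (adjusted p 0.0200) and had -0.56 under sh8 (adjusted p 0.191). XRN2, an exonuclease listed as another partner, had 0.04 and -0.11. FRMD4B, 457 kb from SAMMSON, fell by 1.74 under sh4 (adjusted p 0.000110) and by 0.75 under sh8 (adjusted p 0.0301), and with 1 library left out these calls held in 7 and 3 of 7 fits. The pseudogene H1-8P1, at low counts, fell by 1.79 under sh4 (adjusted p 0.0392), a value that ran from -2.53 to -1.05 with 1 library left out and passed in 3 of 7 such fits.

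TEX41 gave the widest split of the members, which is what it was chosen for. TEX41 spans 596.7 kb with 189 annotated transcripts at chr2:144666312-145262988 on the plus strand. It counted 1096, 1532 and 998 in the shlacZ libraries, 426 and 340 under sh4, and 2769 and 1996 under sh8. The 3 groups did not overlap. The means stood at 31.7% of shlacZ under sh4 and 197% under sh8, log2 differences of -1.64 and 0.98, and sh8 was 6.22 times sh4. The pooled value of -0.33 joins these opposite differences and turned to 0.16 without sh4 library 2 and 0.06 without sh4 library 1.

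The gene beside TEX41 is ZEB2, a transcription factor of the melanocyte lineage, 145.3 kb away on the opposite strand. ZEB2 counted 11998, 11939 and 9859.8 in the shlacZ libraries, 9446 and 9367 under sh4, and 14973 and 12313 under sh8. The groups did not overlap and stood in the order of TEX41, yet none of its comparisons passed: -0.25 under sh4 (adjusted p 0.209), 0.28 under sh8 (adjusted p 0.316) and -0.53 between the hairpins (adjusted p 0.0616, limma). None of 4 tested genes within 500 kb of TEX41 passed in any comparison by limma. Over the 7 libraries the genes most like TEX41 in log2 level, of 12049 with a mean of at least 50, were FYCO1 (Pearson r = 0.986), PGRMC2 (0.982), AKT2 (0.976), GALNTL6 (0.973) and CALD1 (0.971). These r values describe libraries that fall into 3 groups and were the highest of many.

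MALAT1 was the most abundant member. MALAT1 lies at chr11:65497640-65508073 on the plus strand and counted 87296, 65704 and 67891 in the shlacZ libraries, 101957 and 104099 under sh4, and 84060.4 and 74742 under sh8. The sh4 libraries lay above all others, while shlacZ and sh8 overlapped. The log2 fold change was 0.50 under sh4 (interval 0.13 to 0.86, adjusted p 0.0534 by limma) and 0.12 under sh8 (interval -0.25 to 0.48, adjusted p 0.744). The hairpins differed by 0.38 (interval -0.02 to 0.78, adjusted p 0.247). The sh4 value passed under 4 of 17 alternatives, among them limma-voom (0.50, adjusted p 0.0287) and the fit without shlacZ library 1 (0.63, adjusted p 0.00802). The others were a minimum mean of 50 (adjusted p 0.0416) and the same total in every library (0.60, adjusted p 0.0396, limma). It turned to -0.17 under quantile normalization, which gives every library the same set of values, and the reason was not tested.

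NEAT1 lies 52.1 kb from MALAT1 on the same strand, at chr11:65422774-65445540. It counted 56429 in shlacZ library 1, against 16810.0 and 11412 in libraries 2 and 3. Under sh4 it counted 67454 and 23311, and under sh8 40816 and 17297. Library 1 was the highest of each group, at 3.36, 2.89 and 2.36 times library 2 in shlacZ, sh4 and sh8, and the 3 groups overlapped. The within-group SD of NEAT1 was 1.10 on the log2 scale, more than that of 99.7% of those 12050 genes, where the median was 0.18. The log2 fold change was 0.84 under sh4 (interval -0.60 to 2.28, adjusted p 0.386 by limma) and 0.26 under sh8 (interval -1.18 to 1.71, adjusted p 0.869), and the sh8 interval reached beyond 1 in both directions. Single libraries set the sh4 value: it was 1.52 and passed without shlacZ library 1 (adjusted p 0.0315), 0.076 without sh4 library 1 (adjusted p 0.967), 0.36 without shlacZ library 3 (adjusted p 0.736) and 1.61 without sh4 library 2 (adjusted p 0.224).

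The high level of library 1 was not shared by all members. PVT1 stood at 1.37, 1.13 and 1.28 times library 2 in shlacZ, sh4 and sh8, whereas NORAD stood at 0.886, 0.840 and 0.957 times. Long noncoding genes as a whole took 3.29%, 3.25% and 2.97% of normalized counts in library 1 of the 3 groups and 2.24% to 2.63% in the other libraries. Library 1 was also the least deep library of each group, and what set it apart was not tested. Gene counts do not tell the short and long NEAT1 isoforms apart, of which the long one is known to build paraspeckles.

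**Figure D4:**
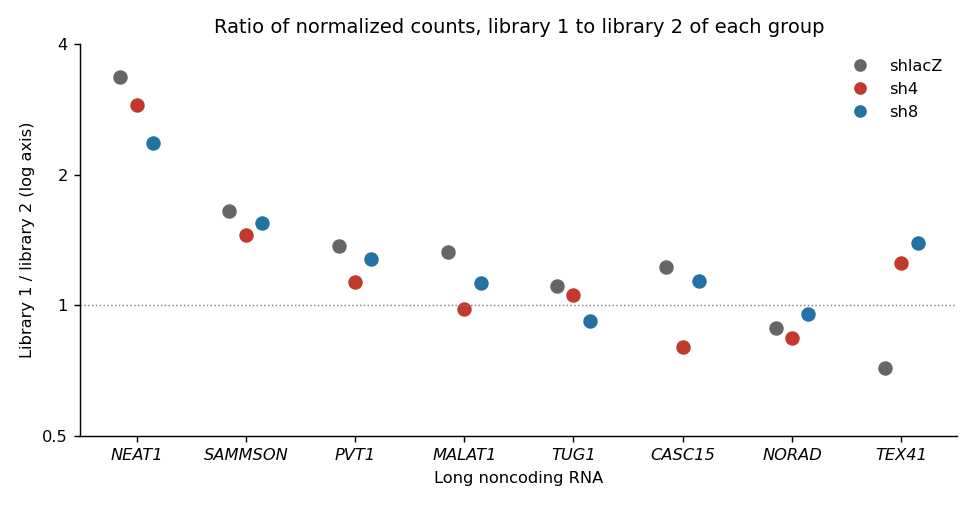
Ratio of normalized counts of library 1 to library 2 within each group (log axis) for 8 long noncoding RNAs; DIRC3 is left out for its low counts. NEAT1 stands at 2.36 to 3.36 and SAMMSON at 1.45 to 1.65 in the 3 groups, while NORAD lies under 1 in each.

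MALAT1 and the long NEAT1 isoform are known to end not in a poly(A) tail but in a triple helix of U-rich and A-rich stretches, cut free by RNase P. The last 100 bases of the longest NEAT1 transcript, at chr11:65445441-65445540, and the matching 100 bases of MALAT1, at chr11:65506017-65506116, are shown for this reason, both on the plus strand of hg38. Capitals mark the 2 runs of more than 10 bases that the NEAT1 end shares with MALAT1, of 16 and 11 bases.
NEAT1: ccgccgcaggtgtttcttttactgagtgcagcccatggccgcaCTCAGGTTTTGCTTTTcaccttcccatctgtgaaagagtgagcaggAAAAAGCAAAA
MALAT1: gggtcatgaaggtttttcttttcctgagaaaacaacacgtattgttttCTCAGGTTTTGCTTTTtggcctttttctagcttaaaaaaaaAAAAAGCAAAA

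METTL16, which binds the MALAT1 triple helix, had log2 fold changes of -0.23 and -0.16 under sh4 and sh8, and the neighbour LTBP3 had 0.24 and 0.28. Neither of these passed. FRMD8, 9.25 kb from NEAT1, counted 352, 493 and 517 in the shlacZ libraries, 739 and 767 under sh4, and 464 and 466 under sh8, and it rose by 0.75 under sh4 (adjusted p 0.0140, limma). Under sh4 10.5% of all genes tested passed as higher and 11.9% as lower. Of 46 tested genes within 500 kb of MALAT1 and 44 near NEAT1, which overlap, 4 passed as higher and none as lower under sh4. They included the protease gene CAPN1 (1.25, adjusted p 0.000295) and the sorting nexin gene SNX15 (1.35, adjusted p 0.00425).

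PVT1 lies 51.6 kb beyond MYC at chr8:127794526-128187101 and is known to share regulation with it. PVT1 counted 1187, 867 and 755 in the shlacZ libraries, 729.6 and 645 under sh4, and 1101 and 860.03 under sh8. The sh4 libraries lay below all others, and shlacZ and sh8 overlapped. The log2 fold change was -0.42 under sh4 (interval -0.86 to 0.01, adjusted p 0.151 by limma), 0.08 under sh8 (interval -0.36 to 0.52, adjusted p 0.867) and -0.50 between the hairpins (interval -0.98 to -0.03, adjusted p 0.199), so none passed. MYC, the growth-promoting transcription factor, counted 3679, 4823 and 5178 in the shlacZ libraries, 1740.3 and 1437 under sh4, and 3857 and 4289 under sh8. MYC fell by 1.51 under sh4 (adjusted p 0.000287), had -0.15 under sh8 (adjusted p 0.663) and differed between the hairpins by -1.36 (adjusted p 0.00277). CCDC26, another long noncoding gene of the region, 447 kb from PVT1, fell by 1.72 under sh4 (adjusted p 0.00328) and had 0.59 under sh8 (adjusted p 0.327).

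DIRC3 lies at chr2:217284019-217756593 on the minus strand and is known as a target that MITF and SOX10 hold down. It was near the limit of detection, with 4 to 16 reads a library. It counted 5.16, 16.8 and 9.57 in the shlacZ libraries, 5.65 and 7.46 under sh4, and 11.9 and 3.64 under sh8, and the 3 groups overlapped, so that no difference was detectable at this depth. IGFBP5, a growth factor binding protein gene that DIRC3 is known to act on, 588 kb away, counted 35.1, 63.9 and 67.0 in the shlacZ libraries, 119 and 115 under sh4, and 73.8 and 82.8 under sh8. It rose by 1.12 under sh4 (adjusted p 0.0254, limma) and had 0.55 under sh8 (adjusted p 0.375). TNS1, the neighbour on the other side, had -0.28 and 0.58 and did not pass.

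**Figure D5:**
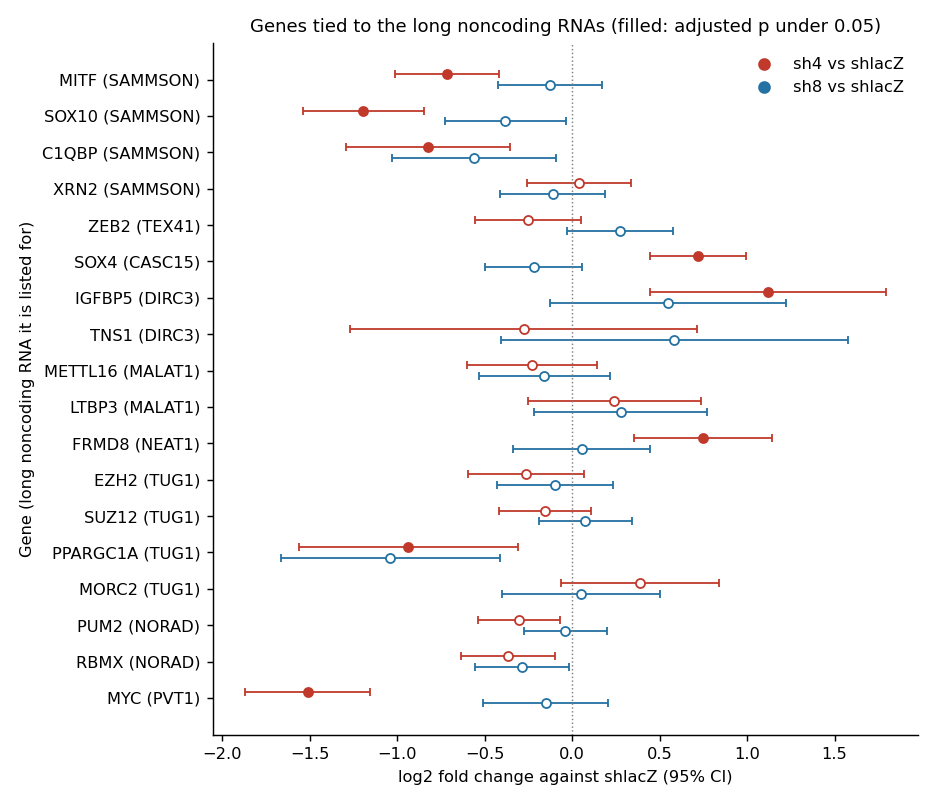
log2 fold change with its 95% confidence interval from limma for 18 genes tied to the long noncoding RNAs as neighbours or partners, under sh4 (red) and sh8 (blue). Filled points passed an adjusted p of 0.05, 8 under sh4 (3 higher and 5 lower) and 0 under sh8.

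The list of partners and neighbours was written with earlier results of these data known, so its counts are a description. Over the 20 partners and neighbours, 3 passed as higher (SOX4, IGFBP5 and FRMD8) and 5 as lower (MYC, SOX10, PPARGC1A, C1QBP and MITF) under sh4. The calls of MYC, SOX10 and SOX4 held under all 17 alternatives, and those of MITF, FRMD8, IGFBP5, C1QBP and PPARGC1A under 16, 15, 14, 13 and 9 of them. The pooled call of PPARGC1A held under 5 alternatives. The median log2 fold change of the 20 was -0.24, against -0.01 over all genes. Under sh8 none passed by limma, and the median was -0.10. Over the 94 tested genes within 500 kb of any member, each counted once, 12 passed as higher and 6 as lower under sh4, where 10.5% and 11.9% of all genes did so. Under sh8 0 passed as higher and 1 as lower, FRMD4B.

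Other long noncoding RNAs were followed in lists written for comparison, with earlier results of these data known. Their counts beside the shares of all genes are therefore a description. Of 16 melanoma-linked ones 7 were tested, and 3 of them passed as lower and none as higher under sh4, LINC00520, LINC00518 and ZFAS1, with log2 fold changes of -1.50, -1.34 and -1.03 (adjusted p 0.000101, 0.00135 and 0.000961 by limma). LINC00520 also fell under sh8 by 0.65 (adjusted p 0.0257). Of 17 widely expressed or nuclear ones all were tested, and 1 passed as higher and 5 as lower under sh4. Beside both lists, 10.5% of all genes tested passed as higher and 11.9% as lower under sh4. FTX, a gene of the X-inactivation region, rose by 0.93 under sh4 and 0.86 under sh8 (adjusted p 0.00390 and 0.0258). The sh8 calls of LINC00520 and FTX each held in 3 of 7 fits with 1 library left out. DANCR and SNHG1 fell by 1.42 and 1.24 under sh4 (adjusted p 0.000314 and 0.00100). The list's median was 0.14 under sh4, above 0, while more of its members passed as lower. Over all 2569 tested genes annotated as long noncoding, 155 passed as higher and 153 as lower under sh4 (6.03% and 5.96%), and 14 and 21 under sh8.

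Most genes for proteins of the nuclear bodies that MALAT1 and NEAT1 mark had lower RNA levels under sh4 than in shlacZ. Protein was not measured, and the gene lists used here were written with earlier results of these data known. Of 22 paraspeckle protein genes, 6 passed as lower and none as higher under sh4, where 11.9% and 10.5% of all genes passed as lower and higher. Their median log2 fold change was -0.30 against -0.01 over all genes, and it was -0.15 with quantile normalization and -0.20 with every library set to the same total. HNRNPM fell by 0.67 under sh4 (adjusted p 0.00560). HNRNPA1 had -0.43 under sh4 and -0.57 under sh8 (adjusted p 0.0420 and 0.0480), but each call held under 7 of 17 alternatives and in 1 of 7 fits with a library left out, and the sh4 value was -0.11 at its smallest. ZNF24 fell by 0.66 under sh8 (adjusted p 0.0257, limma), which held in 3 of 7 such fits. With 1 library left out or another setting, 0 to 9 of the 22 passed as lower under sh4. Of 16 nuclear speckle protein genes 2 passed as lower under sh4, SRSF1 (-0.51) and PNN (-0.62), whose calls held in 3 and 4 of 7 such fits. The median log2 fold change of the speckle genes was -0.19 under sh4 and ran from -0.30 to -0.04 over all alternatives. Under sh8 it was -0.08 and ran from -0.20 to 0.03. Of 17 genes for nuclear RNA decay or for MALAT1 and NEAT1 processing, 1 passed as higher, XRN1 (0.41), and 2 as lower, EXOSC10 (-0.43) and UPF1 (-0.62), under sh4 (adjusted p 0.0455, 0.0254 and 0.0371 by limma), and none under sh8. These 3 calls were weak: with 1 library left out XRN1, EXOSC10 and UPF1 passed in 1, 3 and 1 of 7 fits, and the number of the 17 past the threshold ran from 0 to 8.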

How the data were processed

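RNA of 7 libraries was sequenced after ribosomal RNA removal with a stranded kit, and the submitters' processing notes name cutadapt, STAR and hg38. The authors deposited 1 table of normalized counts, reads divided by a size factor of each library. Every value was a whole multiple of 1 read (tolerance 0.01 reads), so reads could be recovered. Gene places, types and lengths came from GENCODE v44 by gene ID (99.89% of IDs matched). The members and lists were chosen with earlier results of these data known.

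log2(normalized count + 1) was fitted with limma 3.58.1 in R 4.3.3 with a variance trend, over 15420 genes with a mean of at least 10. One fit set all hairpin libraries against shlacZ, and another kept the 3 groups apart with a shared estimate of the spread. p-values were adjusted by Benjamini-Hochberg over all genes tested, and the threshold was 0.05. Intervals are 95%. The fits were tested on simulated data with a single setting of the spread and larger changes than those of the tested members. That check does not cover smaller changes or genes with the spread of NEAT1. Alternatives were another pseudocount or minimum mean, 2 other scalings, a fit with no variance trend, a block for the replicate number, limma-voom on the reads, fits on only the groups compared, and fits without 1 library. With 1 library left in a group, that library is assumed to vary like the others.

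Named genes were the members, GRASLND, all listed partners except 2 that are not reported here, up to 3 genes of each other list and up to 2 genes within 500 kb of each member, taken by absolute log2 fold change in the pooled comparison among those past the threshold in any comparison, and the 5 genes most correlated with TEX41. Promoters came from RefSeq (GRCh38.p14); motifs were searched as exact letters. Counting with regard to strand is not given in the sources used here, so reads of overlapping genes may be shared.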

Additional observations from a re-analysis of the deposited data

Results flagged for a closer look

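The effects of sh4 and sh8 differed for 16 genes named in the text, by the limma test of sh4 against sh8 (adjusted p under 0.05). Over all genes tested 3.67% passed as higher in sh4 and 3.33% as lower. Many of the 16 were named because they passed in some comparison, this one included, so their number is no measure of how often the hairpins differ. The values of sh4 minus sh8 on the log2 scale were lower for the melanocyte genes MITF (-0.59), SOX10 (-0.81), MLANA (-1.01), PMEL (-0.71), DCT (-2.30) and TYRP1 (-1.54). They were also lower for MYC (-1.36), FRMD4B (-0.99) and the long noncoding RNAs LINC00518 (-1.40), LINC00520 (-0.86), DANCR (-0.89) and CCDC26 (-2.32). They were higher for SOX4 (0.94), CAPN1 (0.73), SNX15 (1.11) and DUSP18 (0.92). With 1 library left out, the calls of MYC, DCT, TYRP1 and CCDC26 held in all 7 fits and those of LINC00518 and SOX4 in 6. LINC00520 passed in 5, SOX10, MLANA, PMEL, FRMD4B and CAPN1 in 4, DANCR in 3, MITF and SNX15 in 2 and DUSP18 in 1, with adjusted p of up to 0.239 for MITF and 0.291 for DUSP18. TEX41 lay below shlacZ in every sh4 library and above it in every sh8 library, a difference of -2.62 for which it was chosen and which was not tested.

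Over the 4 hairpin libraries pooled, the highest value of XRN2 and that of EXOSC10 stood apart from the others, with a gap of 0.873 and 0.930 of the range on the log2 scale. Such a gap is met by chance in about 1 of 20 groups, and 67 named genes were looked at in this way. The 4 libraries join both hairpins, so they are not 1 uniform group. The groups of 3 and 2 libraries were not tested.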

How the results depend on the processing

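Of the 7 tested members, the number past the threshold under sh4 was 2; it was 4 with every library set to the same total (CASC15, NORAD, MALAT1 and TUG1), 1 without the variance trend and 4 with the replicate number as a block. It ran from 0 (without sh4 library 2) to 4 (without shlacZ library 1) when 1 library was left out. Under sh8 it was 1 with the block (SAMMSON, -0.96, adjusted p 0.0112) and 0 to 1 with a library left out. Between the hairpins it was 1 with quantile normalization and 1 with the same total (NORAD in both), 1 with the block (NEAT1) and 0 throughout with a library left out. In the pooled comparison it was 0 under every alternative run. The block rests on replicate numbers that paired the libraries weakly at most. The deviations of same-numbered libraries correlated from -0.08 to 0.34, under 0.1 for sh4 with sh8 and for shlacZ with sh8 library 2. With the block SAMMSON (-1.12, adjusted p 0.00101) and PVT1 (-0.56, adjusted p 0.0211, limma) passed under sh4. Over all genes the pooled comparison then made 42 calls in place of 711.

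MALAT1 changed sign under quantile normalization in the pooled comparison (-0.041), under sh4 (-0.17) and between the hairpins (-0.25), none past the threshold. Under sh8 NEAT1 turned to -0.21 and PVT1 to -0.060 with the block. With 1 library left out, values that did not pass changed sign for NEAT1 under sh8 (-0.35 to 0.94) and between the hairpins (-0.19 to 1.34), SAMMSON (-0.47 to 0.15) and TUG1 (-0.039 to 0.079) between the hairpins, and PVT1 in the pooled comparison (-0.31 to 0.014) and under sh8 (-0.096 to 0.27). The pooled TEX41 value ran from -0.84 to 0.16; its sh4, sh8 and sh4 to sh8 values moved by less than the within-group SD. The causes were not tested. With 1 library left out, calls over all genes ran from 66 to 1189 pooled, 1407 to 4867 under sh4, 52 to 1597 under sh8 and 144 to 1979 between the hairpins; without the variance trend they were 2500 under sh4, 59 under sh8 and 476 between the hairpins. For the other named genes 573 of 647 values under another setting and 297 of 462 with a library left out stayed past the threshold, and none changed sign. edgeR and DESeq2 were not run on the recovered reads, and no canonical start was given for a second promoter window.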
